A study of Arabidopsis thaliana with 6 samples.

Results

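Seedlings of the gun1,gun5 double mutant and of wild type were compared here after both had grown on the herbicide norflurazon. The comparison uses 4 of the 6 arrays of the series, chosen by sample title: 2 arrays of gun1 gun5 and 2 of wild type Col-0, each with 5 µM norflurazon in the medium. The other 2 arrays, of wild type Col-0 without the herbicide, show the untreated level and are called the control. All seedlings had 3 days of darkness followed by 3 days of continuous white light at 23 °C, on Murashige and Skoog medium with 1.5% sucrose, and total RNA came from whole seedlings with open cotyledons and no true leaves. The labels name neither the gun1 and gun5 alleles nor the parent accession of the double mutant, and gun1 gun5 without norflurazon was not analysed here. A genotype difference seen on norflurazon cannot therefore be told apart from one present without it. Nothing says that arrays of a group came from separate plantings, and the replicate spread behind each p-value may be technical. In whole seedlings, fewer cells of a type and less RNA per cell cannot be told apart.

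Norflurazon inhibits phytoene desaturase, an enzyme of carotenoid synthesis. Without carotenoids the plastids are damaged in light, and the nucleus then lowers the transcripts of many photosynthesis genes, which is known as retrograde signalling. The gun (genomes uncoupled) mutants keep more of these transcripts than wild type does after such damage. GUN1 encodes a plastid pentatricopeptide repeat protein, and GUN5 encodes the H subunit of magnesium chelatase, the enzyme that puts magnesium into the porphyrin ring on the way to chlorophyll. GUN1 and GUN5 are not among the loci named here, so neither transcript is analysed.

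Each signal below is an array intensity scaled by the authors so that the trimmed mean of every array was close to 100, and each difference is a difference of group means of log2(signal + 16), gun1 gun5 minus wild type. Adding 16 holds dim probe sets together, so differences of dim genes are understated. A probe set was called when its adjusted p from limma was under 0.05.

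The norflurazon arrays were less alike within a group than the control arrays. The standard deviation of the log2 difference between replicates was 0.215 for the control, 0.383 for gun1 gun5 and 0.50 for wild type on norflurazon. The 8 tested genes of the heat shock list had a median signal of 1967.45 on wild type norflurazon replicate 1 and of 1492.8 on gun1 gun5 replicate 1, against 35.1 and 155.05 on their replicates 2 and at most 32.45 on the control arrays. The array's 25S ribosomal RNA probe set, a control feature, read 2511.1 and 8.2 in wild type on norflurazon and 115.6 and 21.0 in gun1 gun5. The ratio of 3′ to 5′ actin signal, a measure of RNA quality, was higher on replicate 2 than on replicate 1 in both norflurazon groups, with a range of 1.65 to 3.635. The array numbered 1 in each norflurazon group thus stood apart from the array numbered 2 in these readings, and counts without each array follow. Of the markers for other tissues, the root and vascular lists had no named locus and the epidermis and guard cell list no tested one. The seed storage gene PAP85, the only tested member of its list, read 45.5 and 54.0 in wild type and 84.0 and 60.6 in gun1 gun5 (difference 0.42, adjusted p = 0.351).

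On norflurazon, the genes called higher in gun1 gun5 than in wild type included 3 of 4 tested photosystem subunits, 2 of 3 tested antenna genes and all 4 tested Calvin cycle genes. These lists hold 23, 21 and 21 genes, so most of their members were not tested. The genes called lower included 4 of 7 tested members of the defence and lipid transfer list. All of these lists were chosen with earlier results of these arrays known, so their counts are no independent evidence of a direction. Of 13648 tested probe sets, 239 were called higher, which is 1.75% of those tested, and 147 were called lower, which is 1.08%, or 2.83% in both directions. The difference was at least 2-fold for 160 of the higher and 91 of the lower probe sets. Over the calls, the median difference was 1.14 for the higher and -1.09 for the lower probe sets, against -0.03 for all tested. In every called probe set both gun1 gun5 arrays lay on 1 side of both wild type arrays, which was also true of 17.7% of all tested probe sets in the higher and 23.1% in the lower direction. The calls named 157 single loci, 100 higher and 57 lower, while 226 called probe sets are unnamed here and 3 name several genes. With 1 probe set per locus, 1.38% of 7259 loci were called higher and 0.771% lower. These shares are the background for the counts of called list members below. An unadjusted p under 0.05 from limma was seen in 2213 of the 13648 tested probe sets.

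**Figure D1:**
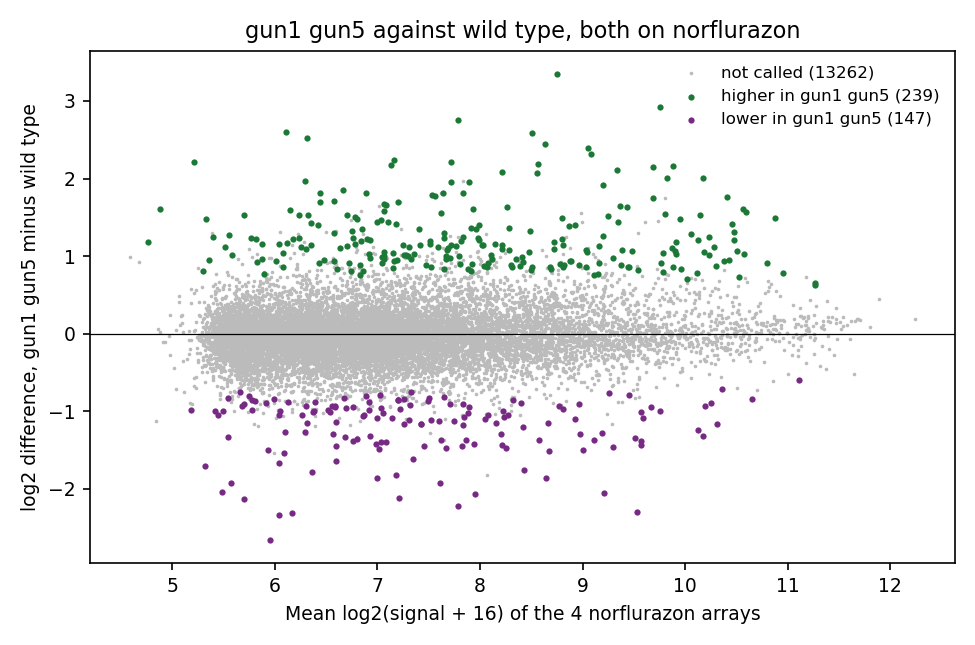
Each point is a tested probe set, with its mean log2(signal + 16) over the 4 norflurazon arrays on the x axis and its log2 difference, gun1 gun5 minus wild type, on the y axis. The 239 higher calls (green) reach 3.35 and the 147 lower calls (purple) reach -2.65.

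These counts depend on the arrays in the fit. The fit pools the spread of 3 pairs of arrays, among them the control pair, which varied least. With the 4 norflurazon arrays alone 79 probe sets were higher and 34 lower. Without gun1 gun5 replicate 2 the counts were 57 and 11, and without gun1 gun5 replicate 1 they were 93 and 55. Without wild type norflurazon replicate 2 they rose to 390 and 373, and without wild type norflurazon replicate 1 they were 251 and 153. Of the 157 called loci 40 were also called with the 4 norflurazon arrays alone. Leaving out arrays could not reverse the direction of a call, since its gun1 gun5 and wild type arrays do not overlap. Without either control array the counts were 78 and 33. Of the 49 calls chosen by the rule for named genes, 18 were called in every fit with fewer arrays. The higher ones were PSBY, LHCB4.1, SBPASE, HPR, PORB, CaS, AT3G28270, AT5G42760, AT1G21500, AT5G38980, AT4G28080, AT4G35360 and AT2G42220, and the lower ones AT4G12490, DRT100, AT5G02890, AT4G32460 and AT5G45670. Each of the others chosen by that rule was lost in at least 1 of these fits.

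**Figure D2:**
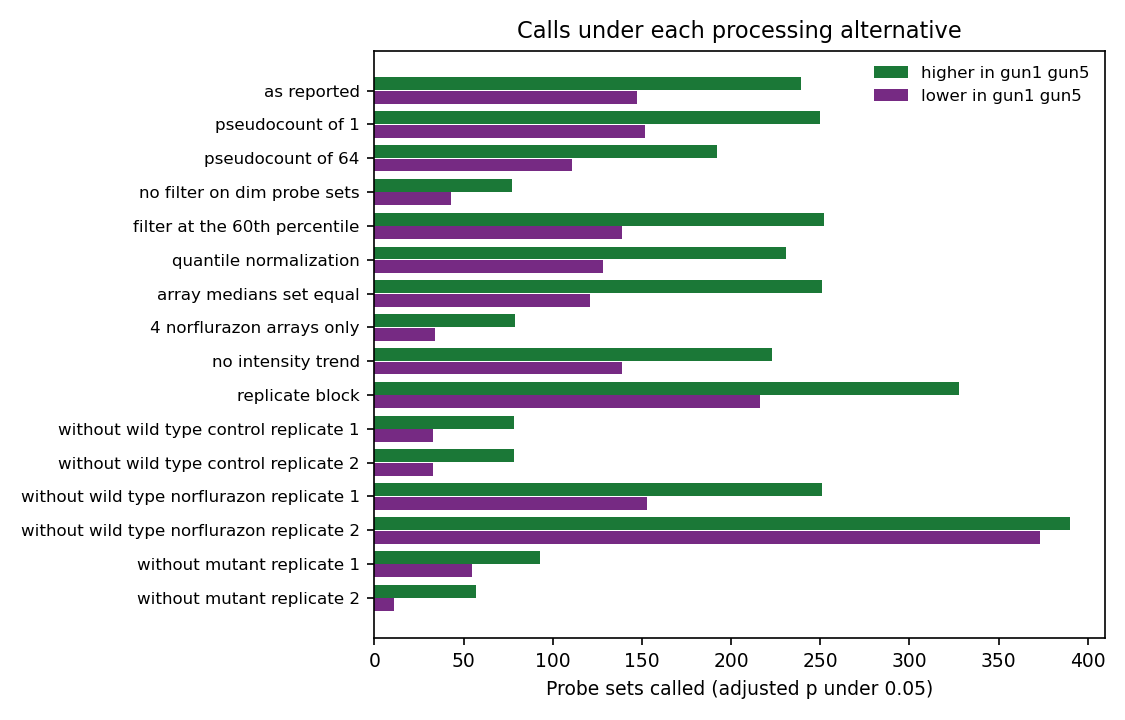
Bars give the number of probe sets called higher (green) and lower (purple) in gun1 gun5 under each processing choice, named on the y axis. The counts are lowest without gun1 gun5 replicate 2, at 57 and 11, and highest without wild type norflurazon replicate 2, at 390 and 373.

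Most tested subunits of the photosystems were called higher in the mutant. Of the 23 genes in the list of photosystem subunits 4 were named and tested, and 3 of these were called higher, with a list median of 1.18 against -0.03 for all loci. PSAE-1 (AT4G28750), a subunit of photosystem I on the stromal side, had signals of 308.9 and 148.6 in wild type on norflurazon and of 1373.4 and 1055.8 in gun1 gun5. The lower mutant array was thus well above the higher wild type array. The difference was 2.40 ± 0.32 (SE, n = 2 arrays a group; adjusted p = 0.0106), the largest among called probe sets that name 1 locus. In the control PSAE-1 read 3392.6 and 2388.8, so that the mean signal was 7.91% of the control in wild type and 42.0% in gun1 gun5. PSBY (AT1G67740), a small protein of photosystem II, had signals of 639.4 and 691.0 in wild type and of 1564.5 and 1734.7 in gun1 gun5. These arrays did not overlap either, and the difference was 1.29 ± 0.13 (SE; adjusted p = 0.00396). PSAN, a subunit of photosystem I in the thylakoid lumen, read 496.8 and 394.9 in wild type and 1097.8 and 826.2 in gun1 gun5 (difference 1.08, adjusted p = 0.0275). PSBW, another small photosystem II protein, differed by 0.61 and was not called (adjusted p = 0.0992), although its mutant signals of 1811.9 and 1784.5 lay above the wild type signals of 1017.7 and 1345.6. Without either gun1 gun5 array 1 photosystem gene was called, PSBY, and PSAE-1 was not (adjusted p = 0.0731 and 0.0618).

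Of the 21 genes in the antenna list only the 3 LHCB4 genes were named and tested. They encode CP29, a minor chlorophyll-binding protein next to the photosystem II core. LHCB4.2 (AT3G08940) read 200.5 and 80.4 in wild type on norflurazon, 723.1 and 494.0 in gun1 gun5, and 2596.2 and 2249.6 in the control. LHCB4.1 (AT5G01530) read 883.9 and 960.7 in wild type, 2271.5 and 2024.6 in gun1 gun5, and 3611.6 and 3219.6 in the control. Both were called, at 2.09 ± 0.36 (SE; adjusted p = 0.0266) and 1.20 ± 0.13 (SE; adjusted p = 0.00558). The wild type level of LHCB4.2 was 5.80% of its control and the mutant level 25.1%, while LHCB4.1 stood at 27.0% and 62.9%. LHCB4.3 read 96.9 and 107.0 in wild type and 166.2 and 141.4 in gun1 gun5 and was not called (difference 0.52, adjusted p = 0.179). LHCB4.2 was not called with the 4 norflurazon arrays alone (adjusted p = 0.0867).

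Of the 21 genes in the list for the Calvin cycle, which fixes carbon dioxide in the stroma, 4 were named and tested. All 4 were called higher, with a median of 1.27. SBPASE (AT3G55800), sedoheptulose-bisphosphatase, had signals of 274.1 and 291.3 in wild type on norflurazon and of 809.5 and 739.7 in gun1 gun5, against 2234.6 and 2007.6 in the control. PRK (AT1G32060), phosphoribulokinase, read 456.2 and 311.7 in wild type, 1115.1 and 997.5 in gun1 gun5, and 2682.7 and 2570.2 in the control. For both genes the mutant arrays lay between the wild type norflurazon and the control arrays. The differences were 1.40 ± 0.15 (SE; adjusted p = 0.00401) for SBPASE and 1.44 ± 0.19 (SE; adjusted p = 0.0102) for PRK. RCA, Rubisco activase, read 1690.5 and 1323.2 in wild type and 2649.4 and 2523.8 in gun1 gun5 (difference 0.78, adjusted p = 0.0356), and AT1G56190, the remaining gene of the list, differed by 1.14 (adjusted p = 0.0354). With the 4 norflurazon arrays alone, and also without either gun1 gun5 array, 1 of the 4 was called.

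In photorespiration, which recycles the product of Rubisco's reaction with oxygen, 1 of 4 tested genes was called. HPR (AT1G68010), the peroxisomal hydroxypyruvate reductase, read 740.7 and 695.8 in wild type and 1816.4 and 1565.5 in gun1 gun5, a difference of 1.21 ± 0.14 (SE; adjusted p = 0.00628). Its mean was 21.9% of the control in wild type and 51.6% in gun1 gun5. AT1G32470 of the same list had a difference of 1.25 that was not called (adjusted p = 0.0653), with 172.1 and 92.7 in wild type and 386.0 and 270.0 in gun1 gun5. Of the 4 tested genes for electron transport and the ATP synthase, ATPC1, the gamma subunit of the chloroplast ATP synthase, was called. It read 716.1 and 656.5 in wild type and 1405.6 and 1115.6 in gun1 gun5 (difference 0.85, adjusted p = 0.038), and it was called in 0 of the fits with fewer arrays. Its paralogue ATPC2 had near-equal signals of 43.6 and 43.0 in wild type and 37.7 and 38.8 in gun1 gun5 (difference -0.13, adjusted p = 0.775).

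Tetrapyrrole synthesis, which leads to chlorophyll and to haem, had 9 tested genes of 30 listed, and 2 were called higher, with a list median of 0.52. PORB (AT4G27440), the light-dependent protochlorophyllide oxidoreductase, had signals of 70.3 and 51.8 in wild type on norflurazon and of 228.1 and 223.0 in gun1 gun5. The control arrays read 810.3 and 761.6, so both norflurazon groups were below the control and the mutant was the higher of the pair. The difference was 1.66 ± 0.18 (SE; adjusted p = 0.00456), and the mean was 7.77% of the control in wild type and 28.7% in gun1 gun5. AT1G74470, annotated as geranylgeranyl reductase, which makes the phytyl side chain of chlorophyll, read 955.1 and 651.4 in wild type and 1596.1 and 1724.5 in gun1 gun5 (difference 1.06, adjusted p = 0.0313). The mutant minus the control was -0.13 for this gene, with a 95% interval of -0.57 to 0.31. Without either gun1 gun5 array PORB was the 1 called gene of the list. The list median was 0.32 without wild type norflurazon replicate 2 and 0.34 with 64 added to the signals. In 8 of the 9 genes both mutant arrays lay above both wild type arrays, a pattern seen in 17.7% of all tested probe sets. Uncalled members were CHLM, magnesium protoporphyrin methyltransferase, at 0.69 (adjusted p = 0.0772), CHLI2, a subunit of magnesium chelatase, at 0.52 (adjusted p = 0.192), and HEMA2, a glutamyl-tRNA reductase, at 0.19 (adjusted p = 0.716).

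Genes for the shape and organisation of the thylakoid membrane formed another set with calls in 1 direction. Of 7 tested genes of this list, written after the annotation was read, 5 were called higher and 0 lower, with a median of 0.93. Over all loci 1.38% were called higher and 0.771% lower, with a median of -0.03. CaS (AT5G23060), a thylakoid calcium-sensing protein, had signals of 163.6 and 154.6 in wild type, 562.1 and 493.4 in gun1 gun5, and 1309.1 and 1073.5 in the control. TROL (AT4G01050), which tethers ferredoxin-NADP reductase to the membrane, read 150.5 and 113.4 in wild type and 305.8 and 305.4 in gun1 gun5. The mutant arrays of both genes lay above both wild type arrays, with differences of 1.63 ± 0.17 (SE; adjusted p = 0.00396) and 1.13 ± 0.18 (SE; adjusted p = 0.021). Among the CURT1 proteins, which curve the margins of the grana, AT4G01150 (CURT1A) was higher by 0.95 (adjusted p = 0.00924) and AT1G52220 (CURT1C) by 0.93 (adjusted p = 0.0337). Another member, AT4G38100 (CURT1D), had overlapping signals of 111.5 and 80.2 in wild type and 115.9 and 105.8 in gun1 gun5. LIL3:1, a light-harvesting-like protein that stabilises geranylgeranyl reductase, read 317.7 and 261.8 in wild type and 591.4 and 489.8 in gun1 gun5 (difference 0.86, adjusted p = 0.0458). Its mutant mean was 102% of the control. With the 4 norflurazon arrays alone, or without either gun1 gun5 array, 1 of the 7 was called.

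Of 3 tested nuclear subunits of the NDH complex, which runs cyclic electron flow around photosystem I, 2 were called higher, against 1.38% of all loci. NdhN (AT5G58260) read 63.5 and 93.3 in wild type and 181.0 and 173.2 in gun1 gun5, a difference of 1.05 ± 0.20 (SE; adjusted p = 0.0342). NdhS (AT4G23890) read 118.5 and 138.5 in wild type and 226.3 and 325.0 in gun1 gun5, a difference of 1.00 ± 0.20 (SE; adjusted p = 0.0466). NdhL had the lowest level relative to control of the 3, 9.07% in wild type and 18.5% in gun1 gun5, and was not called (difference 0.88, adjusted p = 0.0529). Cpn60beta4 (AT1G26230), a chaperonin subunit that folds the NdhH protein, was called as well, with 47.4 and 59.5 in wild type, 118.3 and 113.7 in gun1 gun5, and 118.4 and 134.1 in the control (difference 0.93, adjusted p = 0.0314). The mutant minus the control was -0.11 for Cpn60beta4, with a 95% interval of -0.49 to 0.28. Of NdhN, NdhS and Cpn60beta4 0 were called with the 4 norflurazon arrays alone.

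Of 8 tested nuclear genes for plastid ribosomal proteins, 2 were called higher, against 1.38% of all loci, and the median was 0.61. In all 8 both mutant arrays lay above both wild type arrays, a pattern seen in 17.7% of all tested probe sets. AT1G29070 read 731.9 and 729.4 in wild type and 1348.7 and 1285.4 in gun1 gun5 (difference 0.84, adjusted p = 0.0183). AT3G54210 read 754.4 and 846.4 in wild type and 1362.2 and 1258.9 in gun1 gun5 (difference 0.70, adjusted p = 0.0496). With the 4 norflurazon arrays alone, or without any 1 of the gun1 gun5 or control arrays, 0 of the 8 were called by limma. FUG1 (AT1G17220), the plastid translation initiation factor 2, had signals of 347.9 and 351.3 in wild type, 828.7 and 663.6 in gun1 gun5, and 846.9 and 711.8 in the control. It was higher than wild type by 1.05 ± 0.17 (SE; adjusted p = 0.0236), and its difference from the control was -0.06, with a 95% interval of -0.46 to 0.34.

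FUG1, AT5G58330 and THIC are called genes outside the lists, picked after their values were seen because the annotation gives them a name. NTRC (AT2G41680), a thioredoxin reductase with its own thioredoxin domain, was the 1 gene called higher of 8 tested thioredoxins, against 1.38% of all loci. It read 146.0 and 176.4 in wild type and 299.1 and 300.9 in gun1 gun5 (difference 0.84, adjusted p = 0.0406), and its control arrays read 278.7 and 285.3. AT5G58330, the NADP-dependent malate dehydrogenase that exports reducing power as malate, read 497.6 and 515.6 in wild type, 957.5 and 901.1 in gun1 gun5, and 1019.0 and 964.3 in the control (difference 0.85, adjusted p = 0.0229). THIC (AT2G29630), which makes the pyrimidine part of thiamine, stayed far below its control in both genotypes, at 14.1% in wild type and 26.5% in gun1 gun5 (difference 0.83, adjusted p = 0.043). The called plastid genes named so far thus stood at very different levels relative to untreated seedlings, from 25.1% for LHCB4.2 to 106% for NTRC.

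**Figure D3:**
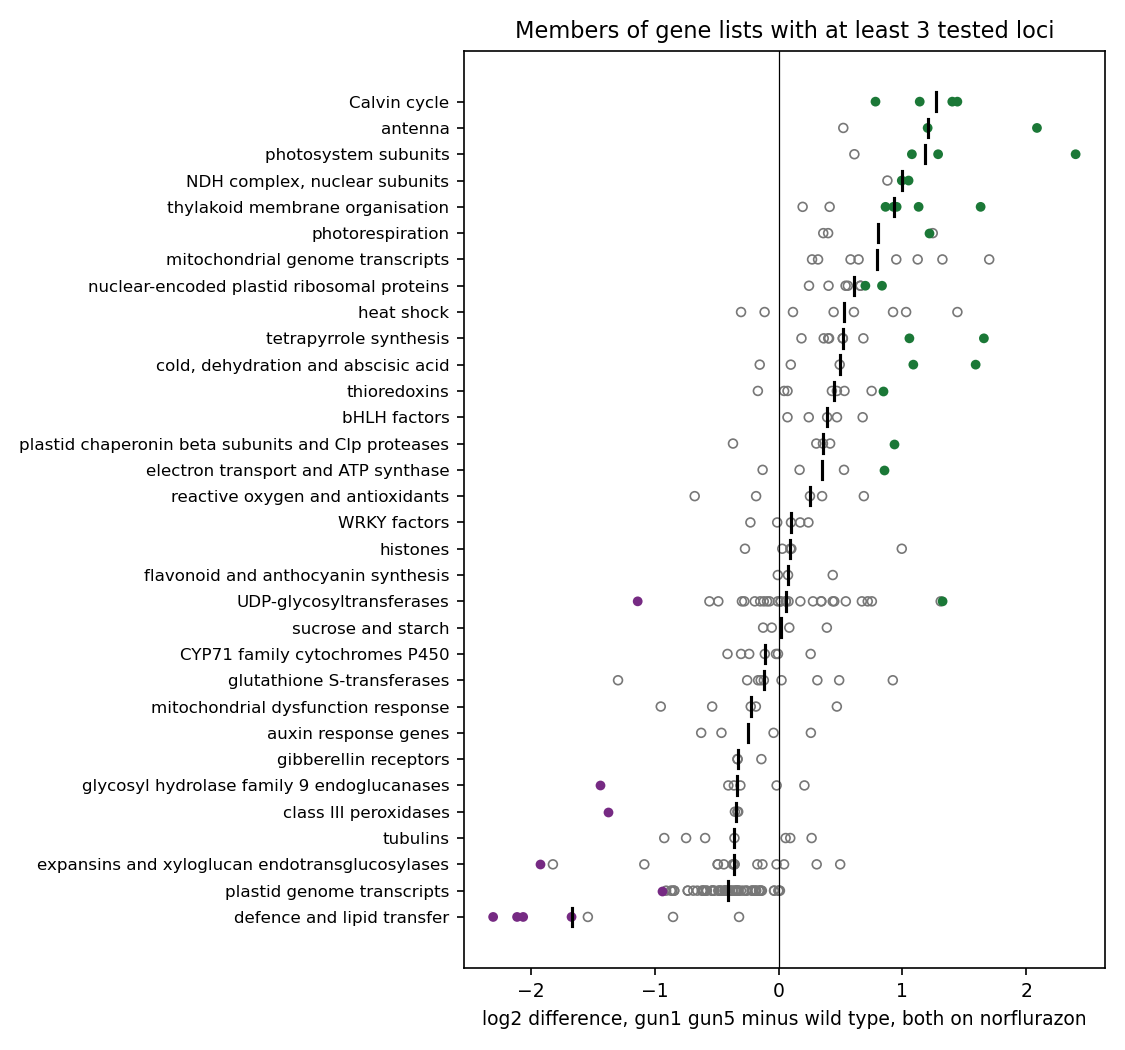
Each circle is a tested gene of the list named on the y axis, at its log2 difference, gun1 gun5 minus wild type on norflurazon; green circles were called higher, purple ones lower, open ones not called, and the black bar is the list's median. The Calvin cycle, antenna and photosystem lists have the highest medians, 1.27, 1.20 and 1.18, and the list of defence and lipid transfer genes the lowest, -1.67. The lists were chosen with earlier results of these arrays known.

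The 12 largest rises at named loci were PSAE-1, LHCB4.2, PORB, CaS and 8 loci for which the annotation used here gives a number only. AT3G28270 was almost without signal in wild type on norflurazon, at 1.3 and 1.0, and read 72.8 and 55.5 in gun1 gun5 and 477.5 and 273.8 in the control. Its difference was 2.22 ± 0.26 (SE; adjusted p = 0.0061), and it was 0.97 and not called (adjusted p = 0.0603) when 64 in place of 16 was added to the signals. AT1G21500 read 28.8 and 19.1 in wild type and 155.6 and 123.3 in gun1 gun5, and AT5G38980 read 98.1 and 84.5 in wild type and 390.0 and 407.3 in gun1 gun5. Both were higher in the mutant on each array, by 1.96 (adjusted p = 0.00371) and 1.95 (adjusted p = 0.00205), and both remained below their control, at 24.4% and 28.0%. AT2G35260 differed by 2.17 (adjusted p = 0.0061), AT4G28080 by 1.82 (adjusted p = 0.00307) and AT2G42220 by 1.67 (adjusted p = 0.00455), and in the mutant these stood at 62.5%, 48.6% and 46.9% of the control.

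In a pair of these loci the mutant signal was at or above that of untreated wild type. AT5G42760 read 72.6 and 92.2 in wild type on norflurazon, 421.5 and 454.6 in gun1 gun5, and 243.5 and 219.7 in the control. The mutant exceeded the wild type by 2.21 ± 0.17 (SE; adjusted p = 0.00201) and the control by 0.88, with a 95% interval of 0.47 to 1.28. AT4G35360 read 39.1 and 26.4 in wild type, 159.3 and 123.7 in gun1 gun5, and 114.3 and 123.9 in the control. It was higher than wild type by 1.69 (adjusted p = 0.0061), and its difference from the control was 0.21, with a 95% interval of -0.24 to 0.67.

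**Figure D4:**
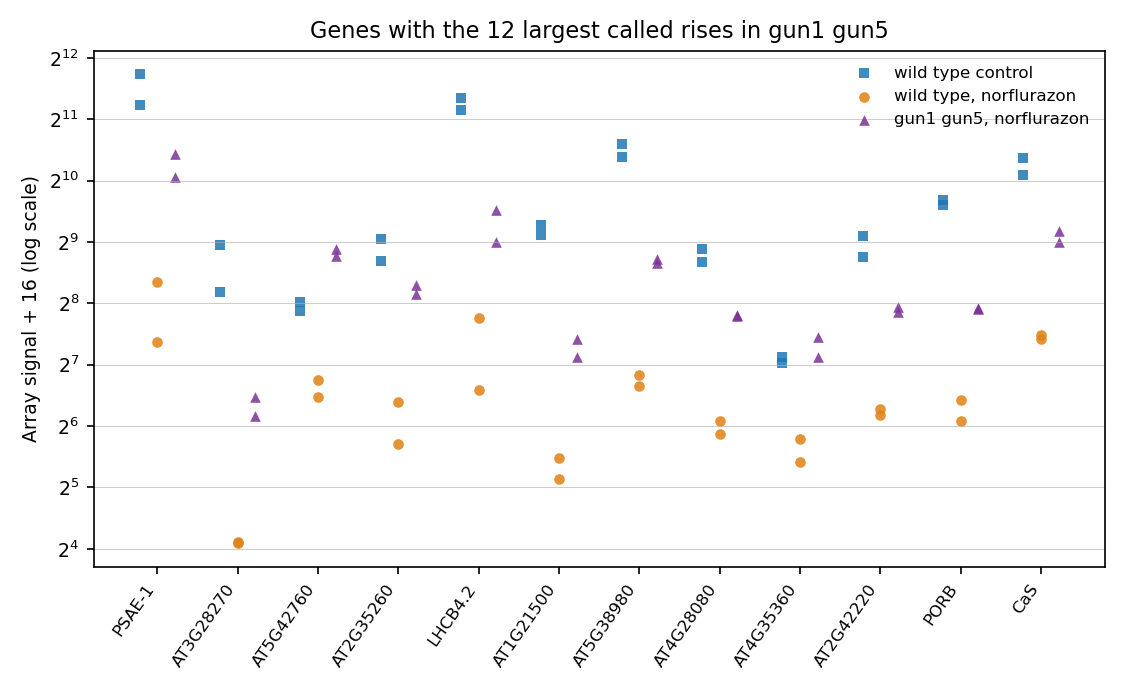
Array signals plus 16, on a log scale, for the 12 loci with the largest called rises; squares are the control, circles wild type on norflurazon and triangles gun1 gun5 on norflurazon, 1 point per array. In each locus both triangles lie above both circles, and in AT5G42760 they also lie above both squares.

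The next question was which of these genes norflurazon itself had not changed in wild type. This class was set as an adjusted p of at least 0.05 and an absolute log2 difference under 0.5 between wild type with and without norflurazon, and 69.7% of all tested probe sets met it, while 19.3% were called in that comparison. Of the 239 higher probe sets 13 met it, which is 5.44%, and of the 147 lower ones 94, which is 63.95%. The same wild type norflurazon arrays enter both differences, so these shares are a description. At the margin, among named loci, the higher calls nearest the limit were AT5G54130 at -0.37 inside and AT5G55220 at -0.66 outside. The lower calls nearest to it were AT3G07010 at -0.49 inside and UGT72E1 at 0.60 outside. Without wild type norflurazon replicate 2 the class held 60 higher and 148 lower probe sets, and without gun1 gun5 replicate 2 it held 1 and 8. With an absolute log2 limit of 0.25 it held 4 and 61.

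The 5 higher loci of this class that have a locus number were UGT87A2, AT5G04810, AT3G04000, AT3G56290 and AT5G54130. UGT87A2 (AT2G30140), a UDP-glycosyltransferase known for its effect on flowering time, had signals of 271.6 and 264.7 in the control, 192.1 and 230.2 in wild type on norflurazon, and 436.1 and 695.4 in gun1 gun5. Both mutant arrays were above all 4 wild type arrays. The difference on norflurazon was 1.33 ± 0.23 (SE; adjusted p = 0.0282), and the change of wild type with norflurazon was -0.33 (95% interval -0.86 to 0.21). AT3G04000 read 93.8 and 94.8 in the control, 92.0 and 90.8 in wild type on norflurazon, and 173.5 and 271.9 in gun1 gun5 (difference 1.12, adjusted p = 0.0375). AT3G56290 read 578.2 and 621.3 in wild type on norflurazon and 1118.8 and 1386.2 in gun1 gun5 (difference 1.04, adjusted p = 0.0362). The last pair, AT5G04810 and AT5G54130, differed by 1.14 (adjusted p = 0.0378) and 0.93 (adjusted p = 0.0303). In all 5 genes the mutant mean was above the control mean, from 164% in AT5G54130 to 236% in AT3G04000. The rule of the class sets this direction, since even the smallest called rise, 0.63, exceeds its limit of 0.5. None of the 5 was called with the 4 norflurazon arrays alone.

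All of the 12 largest falls at named loci except AT5G50335, AT3G13610 and ECS1 belonged to the class that norflurazon did not change, which held 69.7% of all tested probe sets. AT2G43620 had the largest, with signals of 123.0 and 137.0 in the control, 102.2 and 199.8 in wild type on norflurazon, and 18.7 and 14.1 in gun1 gun5. Both mutant arrays were far below all 4 wild type arrays, and the difference was -2.31 ± 0.27 (SE; adjusted p = 0.00623). DRT100 (AT3G12610), a leucine-rich repeat protein gene named for DNA damage tolerance, read 517.9 and 564.7 in the control, 522.4 and 459.1 in wild type on norflurazon, and 128.3 and 85.6 in gun1 gun5. Its difference was -2.06 ± 0.20 (SE; adjusted p = 0.00371), while norflurazon changed wild type by -0.14 (95% interval -0.61 to 0.33). AT4G32460 read 798.3 and 846.6 in the control, 818.1 and 683.2 in wild type on norflurazon, and 189.3 and 199.6 in gun1 gun5 (difference -1.86, adjusted p = 0.00232). AT5G02890 fell to signals of 9.8 and 3.0 in the mutant, from 77.2 and 72.2 in wild type on norflurazon (difference -2.03, adjusted p = 0.00307). AT5G45670 was at -1.78 (adjusted p = 0.00603) and AT5G01210 at -1.83 (adjusted p = 0.0465), the latter with wild type norflurazon arrays of 413.7 and 158.2. The change of AT5G01210 with norflurazon in wild type was -0.30, with a wide 95% interval of -1.16 to 0.56. Over the 8 largest falls of the class, the mutant mean ranged from 11.4% to 25.6% of the control, and the wild type mean on norflurazon from 84.2% to 138%. The contrast of these ranges follows from how the 8 were chosen and is a description.

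Cell wall genes were among these falls, with 1 lower call each in the expansin and endoglucanase lists. Of all loci 0.771% were called lower. EXPA8 (AT2G40610), an expansin, a protein that loosens cell walls, had signals of 415.3 and 470.8 in the control, 446.8 and 299.2 in wild type on norflurazon, and 91.4 and 77.6 in gun1 gun5. The difference was -1.93 ± 0.22 (SE; adjusted p = 0.006). It was the 1 call among 16 tested expansin and xyloglucan endotransglucosylase genes, whose median was -0.36. XTH19 was lower on both arrays, at 236.6 and 65.1 against 521.2 and 460.9, and was not called (difference -1.82, adjusted p = 0.0864). GH9C2 (AT1G64390), an endoglucanase that acts on cellulose, read 308.7 and 413.8 in wild type on norflurazon and 152.1 and 96.1 in gun1 gun5. It was the 1 call among 6 tested genes of its family (difference -1.44, adjusted p = 0.0229; family median -0.33). Without gun1 gun5 replicate 2 neither EXPA8 (adjusted p = 0.0544) nor another member of the expansin list was called, and the list median was -0.19. Without gun1 gun5 replicate 1 the list had 3 lower calls, and also 3 with the replicate number as a block. The median of the endoglucanase family was -0.51 without gun1 gun5 replicate 1, and with 64 added to the signals it was -0.18 and that of the expansin list -0.23. Tubulins, the subunits of microtubules, had 0 calls by limma among 7 tested genes. Of the 7, 3 had an unadjusted p under 0.05, as did 2213 of all 13648 tested probe sets. TUB1 was at -0.75 (adjusted p = 0.0754), and the family ranged from -0.92 to 0.27.

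**Figure D5:**
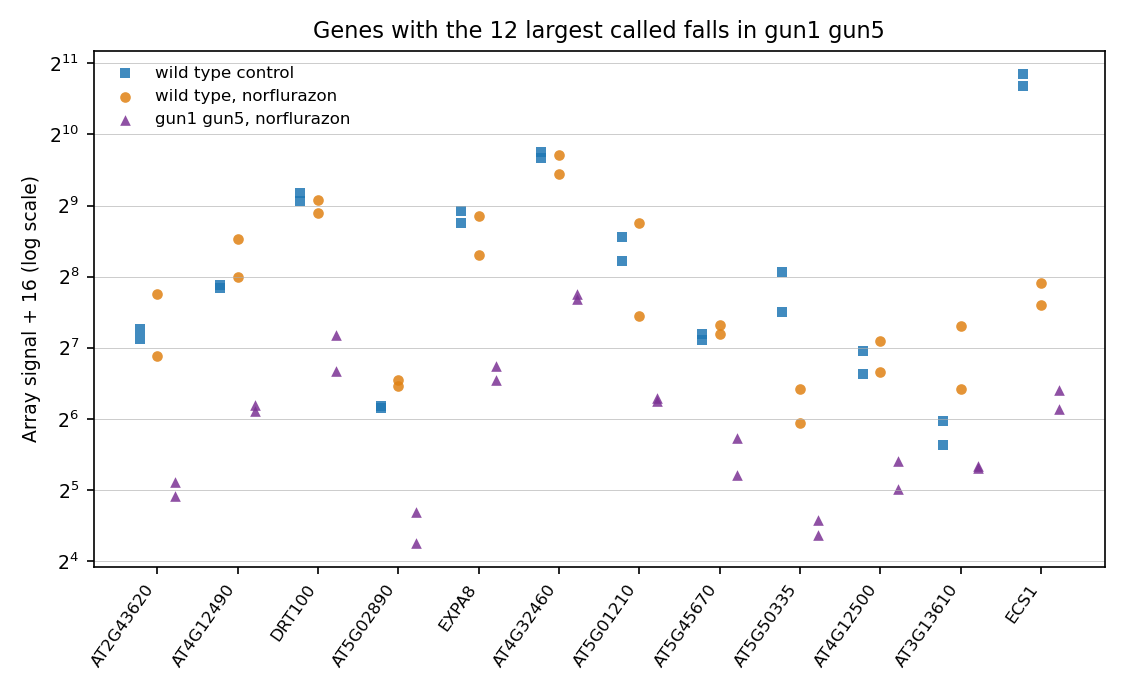
Array signals plus 16, on a log scale, for the 12 loci with the largest called falls; squares are the control, circles wild type on norflurazon and triangles gun1 gun5 on norflurazon, 1 point per array. In each locus both triangles lie below both circles, and for AT5G50335 and ECS1 the circles lie below the squares as well.

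The list of defence and lipid transfer genes had 7 tested members of 9 named, and 4 of them were called lower with a median of -1.67. This list was written with earlier results of these arrays known and holds AT2G43620 and DRT100, so its count is no independent evidence of its direction. AT4G12490 read 219.0 and 212.1 in the control, 239.8 and 353.8 in wild type on norflurazon, and 52.9 and 57.5 in gun1 gun5, a difference of -2.11 ± 0.20 (SE; adjusted p = 0.00363). AT4G12500, close to it on the chromosome, read 85.3 and 120.5 in wild type on norflurazon and 26.3 and 16.2 in gun1 gun5 (difference -1.67, adjusted p = 0.0106). Whether RNA of one gene binds the other's probes was not tested. AT1G65500 was at -1.54 and not called (adjusted p = 0.06). CHI (AT2G43570) had overlapping arrays, at 58.8 and 86.9 in wild type on norflurazon and 43.1 and 67.7 in gun1 gun5. Without gun1 gun5 replicate 2 the list had 2 calls, and with 64 added to the signals its median was -0.96.

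A smaller set of falls concerned genes whose level norflurazon had raised in wild type. AT5G64120 (PRX71), a class III peroxidase, read 265.3 and 284.4 in the control, 825.6 and 932.2 in wild type on norflurazon, and 393.9 and 273.7 in gun1 gun5. The mutant was below wild type by -1.37 ± 0.20 (SE; adjusted p = 0.0148), and its difference from the control was 0.25, with a 95% interval of -0.21 to 0.71. ARPN (AT2G02850), plantacyanin, a small copper protein, went from 41.0 and 60.7 in the control to 251.2 and 354.8 in wild type on norflurazon and was 110.4 and 102.4 in gun1 gun5 (difference -1.36, adjusted p = 0.0229). AT3G13610 (F6'H1), the feruloyl-CoA hydroxylase of scopoletin synthesis, read 46.5 and 33.4 in the control, 142.5 and 69.3 in wild type on norflurazon, and 23.7 and 24.4 in gun1 gun5 (difference -1.54, adjusted p = 0.0337; -0.91 and 0.0555 with 64 added to the signals). ATL8 (AT1G76410), a RING-type ubiquitin ligase gene, differed by -0.82 (adjusted p = 0.0497), with a mutant mean of 118% and a wild type mean of 219% of the control. ARPN and ATL8 were picked after their values were seen, for their annotated names.

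ECS1, AT5G50335 and UPB1 were lowered by norflurazon in wild type and were lower still in gun1 gun5. ECS1 (AT1G31580) read 1628.3 and 1825.3 in the control, 224.5 and 178.2 in wild type on norflurazon, and 69.1 and 54.1 in gun1 gun5. The level was 11.7% of the control in wild type and 3.57% in the mutant, a difference of -1.48 ± 0.19 between them (SE; adjusted p = 0.00844). AT5G50335 read 164.9 and 250.6 in the control, 69.4 and 45.2 in wild type on norflurazon, and 7.8 and 4.6 in gun1 gun5 (difference -1.71, adjusted p = 0.0137). With 64 added to the signals in place of 16, AT5G50335 was at -0.78 and not called (adjusted p = 0.0611), nor was it called without gun1 gun5 replicate 1 (adjusted p = 0.0628) or replicate 2 (adjusted p = 0.109). UPB1 (AT2G47270), a transcription factor that sets the balance of reactive oxygen species in the root tip, read 388.8 and 401.5 in the control, 203.6 and 190.1 in wild type on norflurazon, and 64.2 and 65.8 in gun1 gun5 (difference -1.39, adjusted p = 0.00566). UPB1 was picked after its values were seen, as was scpl25, a serine carboxypeptidase-like gene at -0.83 (adjusted p = 0.0342) that norflurazon lowered by a log2 difference of -0.76 in wild type. GPDHC1, a cytosolic glycerol-3-phosphate dehydrogenase gene picked in the same way, differed by -1.05 between genotypes (adjusted p = 0.0298) and by -0.03 between wild type with and without norflurazon (95% interval -0.46 to 0.40). UGT72E1, which glucosylates lignin precursors, was at -1.14 (adjusted p = 0.0319), the 1 lower call among 28 tested UDP-glycosyltransferases, with UGT87A2 the 1 higher call. Of all loci 0.771% were called lower and 1.38% higher. UGT72E1 read 75.9 and 82.1 in the control, 156.6 and 104.0 in wild type on norflurazon, and 45.4 and 53.7 in gun1 gun5, and its change with norflurazon in wild type was 0.60 (adjusted p = 0.0792).

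Of the stress lists, that for cold, dehydration and abscisic acid had 2 higher calls among 5 tested genes, against 1.38% of all loci. COR15B (AT2G42530), a cold-regulated protein that protects chloroplast membranes, read 92.0 and 84.7 in the control, 31.1 and 19.5 in wild type on norflurazon, and 100.3 and 114.7 in gun1 gun5. The mutant arrays were above all 4 wild type arrays, and the difference on norflurazon was 1.59 ± 0.19 (SE; adjusted p = 0.00622). PUB19 (AT1G60190), a ubiquitin ligase of abscisic acid signalling, read 31.1 and 46.2 in wild type and 90.2 and 108.8 in gun1 gun5 (difference 1.09, adjusted p = 0.0428). The heat shock list had 0 calls and 0 unadjusted p under 0.05 among 8 tested genes. Its replicates differed far more than its groups did: AT1G53540 read 2739.2 and 18.6 in wild type and 3036.0 and 215.5 in gun1 gun5. The lists of reactive oxygen genes and of the response to mitochondrial dysfunction, 5 tested genes each, also had 0 calls by limma, with 2 and 1 unadjusted p under 0.05. AT2G21640 of the latter had mutant signals of 273.2 and 134.8 below the wild type signals of 421.1 and 357.0 (difference -0.95, adjusted p = 0.169), and TAPX, the thylakoid ascorbate peroxidase, was at 0.69 (adjusted p = 0.113).

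In the lists that follow limma called 0 genes, with 0 to 3 unadjusted p under 0.05 in each, against 2213 in all 13648 tested probe sets. Carotenoid synthesis, the pathway that norflurazon blocks, had 2 tested genes, with Z-ISO at 0.61 (adjusted p = 0.132). Both were above wild type on both mutant arrays, as were 17.7% of all tested probe sets. HYH, a light-signalling factor, was at 0.23 (adjusted p = 0.636), UGT78D2 of the flavonoid list at 0.44 (adjusted p = 0.255) and the clock gene GI at -0.18 (adjusted p = 0.787). ATSPS4F, a sucrose phosphate synthase, was about equally dim in both genotypes on norflurazon, at 21.2 and 11.2 in wild type and 26.3 and 25.1 in gun1 gun5, against 264.2 and 231.5 in the control (difference 0.39, adjusted p = 0.378). Among 9 tested glutathione S-transferases, enzymes of detoxification, GSTU20 was lowest at -1.30 (adjusted p = 0.0595). The family reached 0.92 at the other end, with a median of -0.12. The smallest p of each remaining family belonged to WES1 of the auxin response genes at -0.62 (adjusted p = 0.122), bHLH34 at 0.68 (adjusted p = 0.169), WRKY47 at 0.24 (adjusted p = 0.523), CYP71B23 at -0.41 (adjusted p = 0.326), the gibberellin receptor GID1C at -0.33 (adjusted p = 0.436) and the histone HIS1-3 at 1.00 (adjusted p = 0.31).

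Transcripts of the plastid genome did not share the direction of the nuclear photosynthesis genes. Of 62 tested, 0 were called higher and 1 lower, against 1.38% and 0.771% of all loci. An unadjusted p under 0.05 was seen in 2213 of all 13648 tested probe sets and in 19 of these 62. The 62 had a median of -0.41 and a maximum of 0.01. The called one was ndhJ, a subunit of the NDH complex, with signals of 514.0 and 465.3 in the control, 288.7 and 341.9 in wild type on norflurazon, and 148.1 and 164.5 in gun1 gun5. Its difference was -0.94 ± 0.17 (SE; adjusted p = 0.0309), opposite in sign to those of the nuclear NDH genes NdhN and NdhS. Without wild type norflurazon replicate 2, 12 of the 62 were called lower, and with the 4 norflurazon arrays alone 0 were. The 8 tested transcripts of the mitochondrial genome had 0 calls by limma, a median of 0.80 and 5 unadjusted p under 0.05, with nad9 at 0.65 (adjusted p = 0.202). Their median was 0.36 without gun1 gun5 replicate 1 and 1.46 without gun1 gun5 replicate 2, and without wild type norflurazon replicate 1 the list had 1 higher call. Their signals were uneven between replicates: nad6 read 130.4 and 30.7 in wild type and 511.3 and 121.2 in gun1 gun5, the higher value of each pair being on the array numbered 1. The 25S ribosomal RNA signal was also the higher on that array in both groups, and its part in the results on organelle transcripts was not tested.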

How the data were processed

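Total RNA of 6 seedling samples was biotin-labelled for ATH1 arrays, 1 array per sample. The deposited values are array intensity signals on a linear scale, and per the submitters' processing notes MAS5 produced them, in a version not given in the sources used here. Of 22810 probe sets 64 control ones were left out. Signals were transformed to log2(signal + 16), and probe sets whose mean over the 6 arrays was below the 40th percentile (a signal of 28.2) were dropped, leaving 13648. All 6 arrays entered 1 linear model with group means as terms (limma 3.58.1, R 4.3.3; lmFit and trended eBayes; 3 residual degrees of freedom), and two-sided p-values were adjusted over all tested probe sets by the Benjamini-Hochberg method. An exact permutation test of 2 against 2 arrays cannot go below p = 0.333. The script was tested on simulated data in which every group had the same spread. The groups here differed in spread, so that test does not cover this feature of the data. The number of arrays limits the precision, and no detection calls were used.

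Names come from the platform annotation and were updated through RefSeq's gene table of TAIR10.1: 13513 name 1 gene, 503 several and 8730 are unnamed here. For lists, a locus was represented by its brightest probe set on average. The named genes are the 12 largest rises and 12 largest falls among calls with 1 locus and arrays that do not overlap, the 8 largest of each that norflurazon did not change, and per list the 2 largest calls or the smallest p. The members and lists were chosen with earlier results of these data known. The alternatives changed the pseudocount, the filter, the scaling, the arrays in the fit, the trend and the replicate block.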

Additional observations from a re-analysis of the deposited data

Results flagged for a closer look

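The array's 25S ribosomal RNA probe set, a control feature that enters no comparison, gave a far higher signal on a pair of norflurazon arrays than on the control arrays, which read 15.2 and 11.1. It was 2511.1 on wild type norflurazon replicate 1 and 115.6 on gun1 gun5 replicate 1, against 8.2 and 21.0 on their replicates 2. With 2 arrays a group, no array could be tested as an outlier.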

How the results depend on the processing

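All 49 named calls kept their direction under each alternative in which they were tested. Since their arrays do not overlap, only quantile normalization and equal array medians could have reversed it. All 49 were also called with a pseudocount of 1 and with the replicate block. Of these 49, 26 were called with the 4 norflurazon arrays alone, 23 without a filter on dim probe sets and 18 without gun1 gun5 replicate 2. Without the filter, 77 probe sets were higher and 43 lower, and 3 and 21 of these were not changed by norflurazon. More tests then share the adjustment and the standard errors differ as well. Which of these lowered the counts was not tested. With the 4 norflurazon arrays alone 79 were higher and 34 lower, and no class of unchanged genes could be formed since the control was left out. Leaving out 1 array at a time gave 57 to 390 higher and 11 to 373 lower probe sets, with 1 to 60 and 8 to 148 not changed by norflurazon, and 621 to 3196 calls for norflurazon against control in wild type, against 2630 with all arrays. The lowest of these last counts came without control replicate 1, and it was 716 without control replicate 2. Without either control array 78 probe sets were higher and 33 lower in gun1 gun5. The cause of these shifts was not tested. A limit of 0.25 on the change with norflurazon left 4 higher and 61 lower.

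The labels do not say that a replicate number marks a shared planting. Deviations of same-numbered arrays from their group means correlated at 0.48 between the norflurazon groups. With the replicate block 328 probe sets were higher and 216 lower, and 30 of the higher ones were not changed by norflurazon. GSTU20 was called with the block (adjusted p = 0.0214). It was also called without wild type norflurazon replicate 2, as were TAPX and HIS1-3. The other settings (pseudocounts of 1 and 64, a filter at the 60th percentile, quantile normalization, equal array medians and no intensity trend) kept the counts of higher and lower probe sets within 1.5 times the reported ones. The number of arrays and the signal over background of dim probe sets limit what could be called.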

Other observations

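Among 2153 pairs of neighbouring protein-coding loci that were both tested, 1 pair had both members called. The shares over all loci were 1.38% called higher and 0.771% called lower, so a pair of this kind can arise among unrelated loci. PSBY (AT1G67740) was higher in gun1 gun5 by 1.29, and the next locus, AT1G67750, was lower at -1.26 (adjusted p = 0.00648). AT1G67750 read 115.3 and 117.3 in the control, 107.4 and 102.9 in wild type on norflurazon, and 35.4 and 33.7 in gun1 gun5, so that the neighbours moved in opposite directions on every mutant array.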
